A study of Drosophila melanogaster with 8 samples.

Results

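RNA recovered with tagged Sex-lethal (SXL) was set against RNA recovered with its tagged paralogue Sister-of-Sex-lethal (SSX), gene by gene. The comparison used 5 of the 8 samples of the series, chosen by their labels: 2 SXL immunoprecipitates and 3 SSX immunoprecipitates. The input entered no value given here. GFP immunoprecipitates were the authors' background for listing genes. They entered the authors' size factors and the mean normalized count per gene of the authors' table. Of the edgeR fits below, they entered only a refit that added the GFP libraries, and not the main fit. The cells of all 5 libraries were SL2, a line derived from male Drosophila melanogaster embryos, and all 5 came from transfected cells. They made SXL or SSX with a FLAG-3xHA tag, and each precipitate was taken with the mouse monoclonal anti-FLAG M2, so tag, antibody and cell line were shared and the tagged protein differed. RNA was depleted of rRNA and sequenced in pairs of 51 nt reads after a stranded low-input library preparation. The labels do not say that the libraries of a group came from separate cultures. A p-value here therefore speaks of the spread among these 5 libraries, and part of that spread may be technical. The main edgeR fit also draws each gene's spread towards that of all genes. For a gene whose own libraries vary widely its p-value can be too small. How much tagged protein or RNA each precipitate held is not given in the sources used here.

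SXL is the switch protein of female development in Drosophila. It binds runs of U in RNA, directs splicing of its own transcript and of transformer, and blocks splicing and translation of msl-2, a subunit that limits the dosage compensation complex of males. SSX is its closest relative in the fly genome and has the same kind of RNA recognition domains. It is not itself the switch, and has been reported to counter the splicing by which SXL sustains its own expression.

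The authors deposited a comparison of SXL with SSX for all genes, and read counts per library for the 956 genes that they listed as enriched over GFP with SXL, with SSX or with both. The libraries labelled by the column headers SXL 2 and SXL 3 held 3266209 and 3604413 reads on listed genes, and SSX 1, SSX 2 and SSX 3 held 3383720, 4173927 and 4429899. Divided by the authors' size factors, the same totals were 980800 and 1002688 with SXL, against 1575592, 2149164 and 2369483 with SSX. On the authors' scale the listed total was therefore lower in each SXL library than in any SSX library. A size factor is not a total read number, so the share of each library that listed RNA filled was not measured. All values called normalized counts below are reads divided by those size factors. Of the markers of 5 cell types and of the male dosage compensation state that were looked up, counts were at hand for srp (a plasmatocyte transcription factor), elav and futsch (neuronal), osk (germline), 1 of 4 muscle markers, msl-2 and no follicle cell marker. The 6 lists that held them have 12, 6, 6, 4, 5 and 4 genes, and most members were not in the lists with counts, so the line could be checked against few of its defining markers.

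Across all genes the balance lay towards SSX. An adjusted p was given for 9500 genes in the authors' deposited table, and at a threshold of 0.05 it called 1094 genes higher with SXL (11.5%) and 2462 higher with SSX (25.9%). Over all tested genes, large differences were more one-sided than small ones. Past a log2 fold change of 1 in either direction the authors' deposited table held 669 calls towards SXL and 1658 towards SSX. Past 4 it held 9 and 138. Most of those 138 had low counts. Among genes whose mean normalized count reached 50, the 8 lowest values ran from -6.27 to -3.59 and the 8 highest from 3.60 to 4.92. Fewer than 8 calls in each direction therefore lay past 4 at such counts, without that one-sidedness. Over all tested genes the median log2 fold change, SXL over SSX, was -0.23 in the authors' deposited table. After that median was subtracted from each value of the authors' deposited table, and with p-values recomputed from its standard errors, 1690 calls pointed to SXL and 1922 to SSX. The share of calls towards SXL was then 46.8%, against 30.8% as deposited.

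The balance differed with abundance, and not in 1 direction throughout. Abundance here is the mean normalized count of the authors' deposited table, which was taken over GFP libraries as well. Below 10, the authors' deposited table called 39 genes towards SXL and 439 towards SSX of 2772 tested, with a median log2 fold change of -0.76. Between 10 and 50 it called 428 (16.4%) and 362 (13.9%) of 2613, with a median of 0.30, the one range in which calls towards SXL were the more frequent in the authors' deposited table. Between 50 and 200 it called 406 (18.2%) and 564 (25.2%) of 2236, between 200 and 1000 134 (9.62%) and 797 (57.2%) of 1393, and at 1000 or more 87 (17.9%) and 300 (61.7%) of 486, all from the authors' deposited table. From 10 upward the share called towards SSX was larger in each higher range, while the share called towards SXL had no such order.

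Most genes called higher with SXL had no counts per library. Of the 1094 such calls in the authors' deposited table, 1085 lay among the 8544 tested genes outside the lists, where 1597 calls pointed to SSX and the median log2 fold change was -0.08. Of these 8544, 66 could be named through RefSeq synonyms, and the authors' deposited table called 3 of them towards SXL and 15 towards SSX. The 3 were Idgf3, a secreted chitinase-like growth factor (0.64, SE 0.19), lwr, the E2 enzyme of SUMO conjugation (0.68, SE 0.25), and CSN3, a subunit of the COP9 signalosome (0.85, SE 0.36), as log2 fold changes in the authors' deposited table. The dehydrogenase Aldh had -1.85 (SE 0.22) and the Mediator subunit MED1 -1.35 (SE 0.22) in the authors' deposited table. For the male dosage compensation RNA roX1 the authors' deposited table had a log2 fold change of -0.58 with an adjusted p of 0.442, at a mean normalized count of 8.31. Among genes whose mean normalized count reached 50, 7 of the 8 highest in the authors' deposited table carried no name here, with log2 fold changes of 3.60 to 4.92. The leading IDs were FBgn0086027 (4.92, SE 0.77) and FBgn0003935 (4.79, SE 1.03) in the authors' deposited table. The eighth was snRNA:LU, described below. All 8 of the lowest such genes in the authors' deposited table had names and counts.

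**Figure D1:**
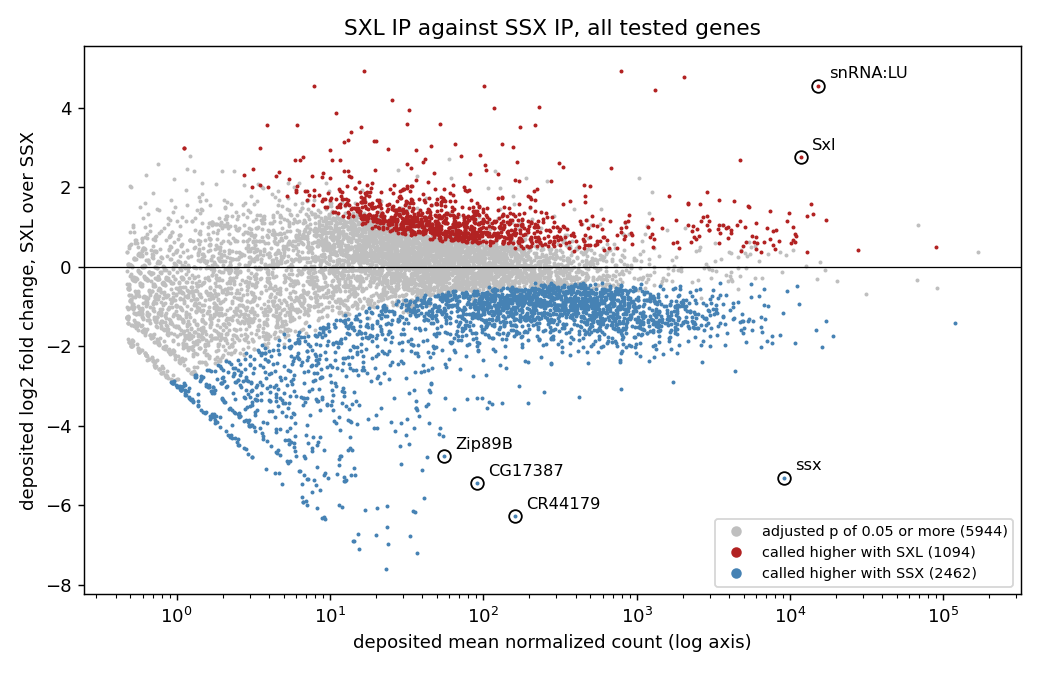
The x axis is the authors' mean normalized count over their libraries and the y axis the log2 fold change, SXL over SSX, in the authors' deposited table, with a point for each of 9500 tested genes. Red points (1094) are calls towards SXL and blue points (2462) calls towards SSX; CR44179 lies at -6.27 and ssx at -5.30, with blue points of lower count further down, and snRNA:LU lies at 4.56.

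On the 956 genes with counts, edgeR's quasi-likelihood test on the 5 libraries called 12 genes higher with SXL (1.26%) and 880 higher with SSX (92.1%) at a Benjamini-Hochberg adjusted p of 0.05, with a median log2 fold change of -1.24. Both SXL libraries lay above all SSX libraries for 12 genes (1.26%) and below all of them for 904 (94.6%). Those 12 are not the same set as the 12 calls, of which 10 had both SXL libraries above all SSX libraries. Of these genes 947 had been listed for enrichment in the same SSX libraries, so the count is no independent evidence of a direction. The 199 genes listed for enrichment with SXL gave 12 calls towards SXL and 151 towards SSX, with a median of -0.98. The scale matters as much: TMM scaling over the listed genes gave 169 calls towards SXL and 192 towards SSX (46.8% towards SXL), equal totals gave 78 and 296 (20.9%), and the authors' scale gave 12 and 880 (1.35%). TMM and equal totals moved the listed median by 1.23 and 1.03, so values relative to the listed median of -1.24 are given below beside the values on the authors' scale. Under all 4 scalings tried the 12 genes were called higher with SXL. The alternatives to the authors' scale all moved the listed median towards SXL. TMM moved it by 1.23, equal totals by 1.03, and size factors shifted to bring the deposited median to 0 by 0.23. Agreement was therefore close to fixed beforehand and is no support for the 12 calls. Of the 880 genes higher with SSX, 192 were called so under all 4, the same number as under TMM alone. All 192 were also called in the authors' deposited table, with DESeq2, with a robust edgeR fit and with each library left out in turn. Of the 12, 7 kept their call through those same fits: snRNA:LU, Sxl, CR40469, CR43264, CR34335, CG1667 and VhaM9.7-b.

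The 12 listed genes that edgeR called higher with SXL on the authors' scale were the Sxl transcript, 5 noncoding RNAs with spans of 93 to 318 bp, 2 mitochondrial mRNAs and 4 nuclear mRNAs. Of the 9 genes that the authors listed for SXL and not for SSX, 7 were in this group. That listing used the same SXL and SSX libraries, so the overlap is no independent evidence of a direction. The other members of those 9 were h, the hairy transcription repressor, with a log2 fold change of 0.30 (SE 0.26), and CG32579 with 0.15 (SE 0.23), neither of which passed. The 190 genes listed for both proteins gave 5 calls towards SXL and 151 towards SSX.

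The bait transcripts moved with their own proteins. Sxl (FBgn0264270, X, 7074550 to 7098056) had 33236 and 34550.1 normalized counts with SXL, against 3123, 6103 and 5384 with SSX. The groups did not overlap, and the log2 fold change was 2.80 (SE 0.35, edgeR adjusted p = 1e-14). The transcript of the other bait, ssx (FBgn0024987, X, 1370580 to 1375257), had 472 and 542 normalized counts with SXL, against 13865, 26027 and 22695 with SSX. Its log2 fold change was -5.36 (SE 0.43, edgeR adjusted p = 8.4e-33), and again the groups were far apart. Reads of the transfected constructs and of the cell's own genes cannot be told apart in these counts.

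The largest value towards SXL among genes with counts belonged to snRNA:LU (FBgn0263847, 2L, 3046746 to 3046904), a noncoding RNA of 159 bp. It had 89892 and 10432 normalized counts with SXL, against 2295, 641 and 411 with SSX. Both SXL libraries were above every SSX library, but SXL library 2 stood far above SXL library 3. Its log2 fold change was 5.49 (SE 0.39, edgeR adjusted p = 1.9e-41) in the main fit, which draws each gene's spread towards that of all genes. With a robust fit, which lets a gene with an outlying spread keep its own, the SE was 1.61 and the adjusted p 0.0458, and without SXL library 2 the log2 fold change was 3.22. In the authors' deposited table it was 4.56, with an adjusted p of 1.2e-05.

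Other short noncoding RNAs had the same direction. CR43264 (FBgn0262945, X, 5831898 to 5832215) had 7484 and 8339 normalized counts with SXL, against 2806, 2334 and 2182 with SSX. The libraries of each group lay close together, and the log2 fold change was 1.70 (SE 0.29, edgeR adjusted p = 2.5e-08). CR34335 (FBgn0085364, X, 3545862 to 3546110) had 4130.4 and 6511 normalized counts with SXL, against 2765, 1465 and 973 with SSX, a log2 fold change of 1.62 (SE 0.28, edgeR adjusted p = 2.9e-08). CR40469 (FBgn0058469, X, 122493 to 122706) had 536 and 426 normalized counts with SXL, against 192, 94.2 and 81.8 with SSX. In both of these RNAs library SSX 1 was the highest of its group and still below both SXL libraries, and CR40469 had a log2 fold change of 1.97 (SE 0.23, edgeR adjusted p = 5e-16). CR43701 (FBgn0263839, 3L, 1488739 to 1488831) had 199 and 53.1 normalized counts with SXL, against 50.8, 23.7 and 11.8 with SSX. The lower SXL library nearly met the highest SSX library, and the edgeR call (log2 fold change 2.12, adjusted p = 1.3e-12) was lost in the robust fit (adjusted p = 0.12) and without SXL library 2 (log2 fold change 0.87).

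The noncoding RNAs split by length. The files annotate 33 listed genes as lincRNA, of which edgeR called 5 towards SXL and 25 towards SSX. The 5 were the 5 shortest, with annotated spans of 93 to 318 bp and a median log2 fold change of 1.97. The next shortest, CR45623, spans 380 bp and had a log2 fold change of -2.19. Over the 28 longer lincRNAs the median was -2.02, against -1.24 over all listed genes, and 25 were called higher with SSX and 0 higher with SXL (1 of the 28 had a value above 0, CR44953 at 0.23). The dividing length was chosen after these values had been seen, so it carries no test. Of 35 nuclear protein-coding genes with a span of up to 1500 bp, edgeR called 3 towards SXL and 28 towards SSX, with a median of -1.07; over all listed genes 1.26% were called towards SXL. Those 3, VhaM9.7-b, Fis1 and Taf12, are described below. In all, 10 of the 12 calls towards SXL lay among the 98 listed genes with spans under 2000 bp, where 72 were called towards SSX.

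**Figure D2:**
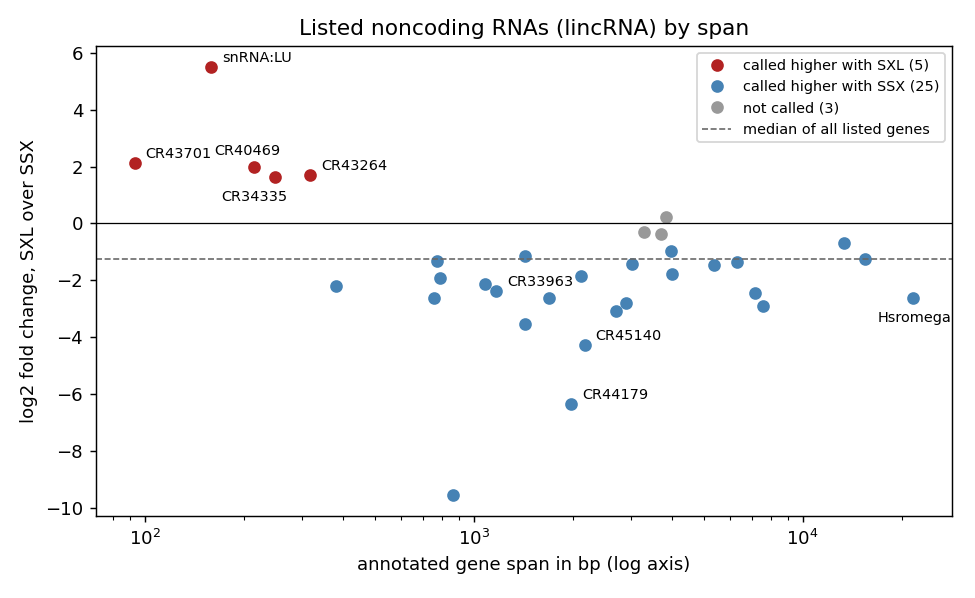
The x axis is the annotated span of each of the 33 listed lincRNA genes in bp and the y axis the edgeR log2 fold change, SXL over SSX; the dashed line is the median of all listed genes (-1.24). The 5 RNAs of 93 to 318 bp lie between 1.62 and 5.49, and 27 of the 28 longer RNAs lie below 0.

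Of the 4 nuclear mRNAs called higher with SXL, CG1667 and VhaM9.7-b had the tightest libraries. CG1667 (FBgn0033453, 2R, 9842686 to 9845512), the fly homologue of the innate immune adaptor STING, had 268 and 261 normalized counts with SXL, against 114, 120.0 and 89.9 with SSX. Its log2 fold change was 1.29 (SE 0.24, edgeR adjusted p = 1.7e-07). VhaM9.7-b (FBgn0028663, 3L, 21539862 to 21541215), a subunit of the vacuolar proton pump, had 486 and 587 normalized counts with SXL, against 257, 270.3 and 277 with SSX. Both genes kept a clear gap between the groups, and VhaM9.7-b had a log2 fold change of 1.00 (SE 0.23, edgeR adjusted p = 2.6e-05). Fis1 (FBgn0039969, 2R, 5603587 to 5604834), an adaptor of mitochondrial fission, had 229 and 175 normalized counts with SXL, against 102, 99.4 and 136 with SSX. Its log2 fold change was 0.85 (SE 0.24, edgeR adjusted p = 0.00063), and without SXL library 2 it was 0.64 with an edgeR adjusted p of 0.099. Taf12 (FBgn0011290, 3R, 11678386 to 11679690), a subunit of the general transcription factor TFIID, had 376 and 391 normalized counts with SXL, against 318, 331 and 164 with SSX. Only library SSX 3 lay far from the SXL libraries, and the edgeR log2 fold change of 0.50 (SE 0.23, adjusted p = 0.032) was 0.24 without it. The call was also lost without SXL library 2, SXL library 3 or SSX library 2 (0.53, 0.47 and 0.67). In the authors' deposited table Taf12 did not pass (adjusted p of 0.226).

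**Figure D3:**
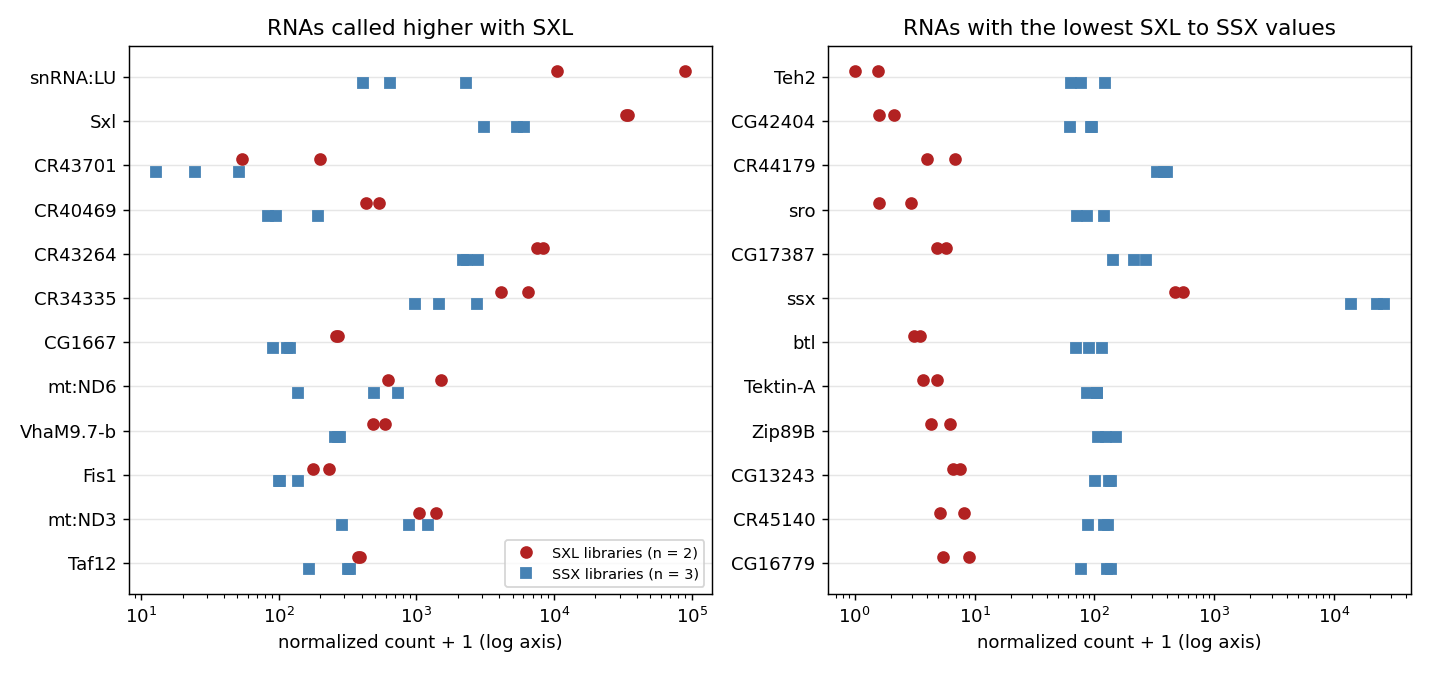
Each row is a gene and each point a library, on a log axis of normalized count + 1, with the 2 SXL libraries as red circles above the 3 SSX libraries as blue squares. In the left panel (12 RNAs called higher with SXL) the gap between groups is widest for Sxl and snRNA:LU. It nearly closes for CR43701 and Taf12, and the groups overlap for mt:ND3 and mt:ND6. In the right panel (12 lowest) no group overlaps and most SXL libraries hold under 10 normalized counts.

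Messenger RNAs of the mitochondrial genome, which encode parts of the respiratory chain and of ATP synthase, had a median near equal recovery on the authors' scale. Of 12 with counts, edgeR called 2 higher with SXL, 1 higher with SSX and 9 in neither direction, and their median log2 fold change was -0.09, against -1.24 over all listed genes. Relative to the listed median they were therefore at 1.15, and under TMM and equal totals their median was 1.14 and 0.94. The call towards SSX was mt:CoI (mitochondrial genome, 1474 to 3009), a subunit of cytochrome c oxidase and the most abundant of the 12. It had 71223 and 93694 normalized counts with SXL, against 147211, 236112 and 278447 with SSX. The groups did not overlap (log2 fold change -1.42, SE 0.41, edgeR adjusted p = 0.00078), although that value lay near the listed median and was -0.17 under TMM, where it did not pass. Without SXL library 2 it was -1.24 (edgeR adjusted p = 0.055). mt:CoIII, of the same enzyme, had 97939 and 97386 normalized counts with SXL, against 97439, 141897 and 183608 with SSX, and the groups overlapped (log2 fold change -0.53, SE 0.39, edgeR adjusted p = 0.18).

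The calls towards SXL among mitochondrial mRNAs depended on which libraries were kept. mt:ND6 (mitochondrial genome, 9970 to 10494) had 616 and 1501 normalized counts with SXL, against 487, 737 and 137 with SSX, and the groups overlapped. Its edgeR log2 fold change of 1.22 (SE 0.25, adjusted p = 1.7e-06) had an adjusted p of 0.30 in the robust fit, was 0.44 without SXL library 3 and did not pass in the authors' deposited table (adjusted p of 0.276). mt:ND3 (mitochondrial genome, 5608 to 5961) had 1040.2 and 1379.5 normalized counts with SXL, against 877, 1221 and 285 with SSX, with overlap as well. Its edgeR log2 fold change of 0.61 (SE 0.26, adjusted p = 0.020) was 0.21 without library SSX 3 and 1.06 without library SSX 2. The mt:ND3 call was also lost without SXL library 2, SXL library 3 or SSX library 1 (0.80, 0.39 and 0.68), and mt:ND3 did not pass in the authors' deposited table (0.57, adjusted p of 0.333). Both transcripts were lowest in library SSX 3. For mt:ND1, a further complex I subunit, the authors' deposited table had a log2 fold change of -0.02 with a 95% interval of -0.57 to 0.53, and for mt:ND2 0.02 with an interval of -0.52 to 0.57. The interval for mt:ND4L was -0.28 to 0.56 around 0.14 in the authors' deposited table, so differences of these sizes cannot be told from 0. All 17 counted nuclear genes whose products the files annotate to the mitochondrion were called higher with SSX by edgeR, as were 92.1% of all listed genes, and their median was -1.21, close to that of all listed genes. They were picked out after their values had been seen, and Fis1, called higher with SXL, is not so annotated in the files.

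**Figure D4:**
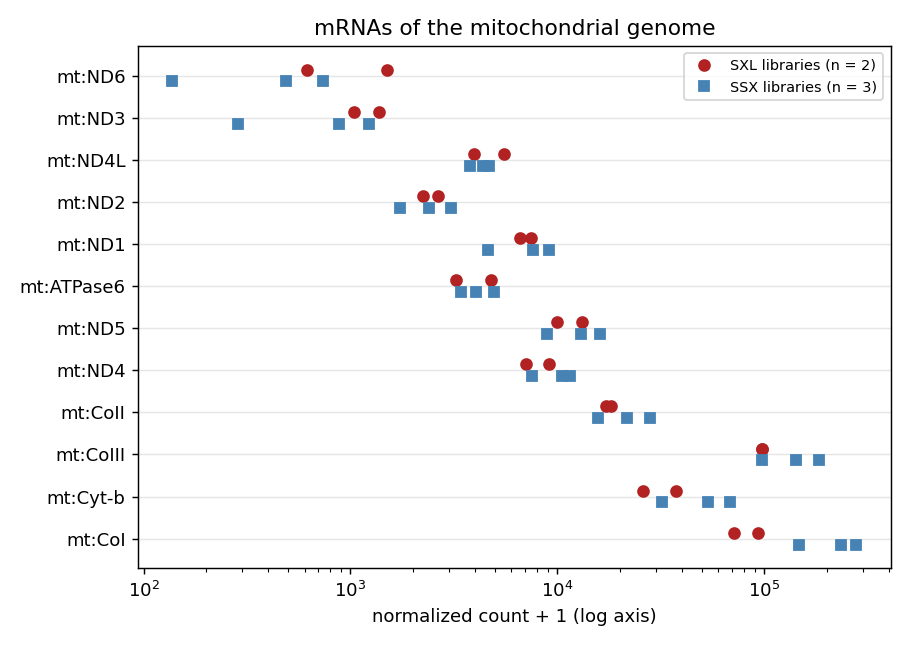
Each row is an mRNA of the mitochondrial genome and each point a library, on a log axis of normalized count + 1, with the 2 SXL libraries as red circles above the 3 SSX libraries as blue squares. Circles and squares overlap or touch in most rows, and mt:CoI alone has both SXL libraries (71223 and 93694) well below every SSX library.

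In the other direction, RNAs lower with SXL ranged from modest differences to a few RNAs with hardly any SXL reads. On the authors' scale 643 of the 956 genes had an edgeR log2 fold change of -1 or below, 111 of -2 or below and 30 of -4 or below. The 192 genes lower with SXL under all 4 scalings comprised 178 protein-coding genes, 13 lincRNAs and 1 pseudogene. Their median log2 fold change was -2.04. All 192 had been listed for enrichment in the same SSX libraries, and 13 of them for SXL as well. The set is therefore no independent evidence of a direction, and the refits above used these same libraries. Of these, 69 lay on the X chromosome (35.9%), where 33.7% of all listed genes lie. The medians of X-linked and autosomal listed genes were -1.35 and -1.18.

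The noncoding RNA CR44179 (FBgn0265068, 3R, 25491285 to 25493262) separated the proteins furthest among RNAs with at least 5 reads in each SXL library. It had 3.00 and 5.84 normalized counts with SXL, against 401, 377 and 332 with SSX. No library came near the other group, and the log2 fold change was -6.36 (SE 0.35, edgeR adjusted p = 1.2e-68), about 82.1-fold. CG17387 (FBgn0037276, 3R, 4781120 to 4784722) had 4.80 and 3.89 normalized counts with SXL, against 215, 142 and 266 with SSX. Its log2 fold change was -5.56 (SE 0.36, edgeR adjusted p = 2.6e-50). CG14655 lies 817 bp from it on the same strand and had 1 SXL read, and its ratio of SSX to SXL was 393 with a 95% counting interval of 70.0 to 15559.

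The 12 lowest values also included mRNAs of unrelated known roles. Teh2 (FBgn0035505, 3L, 4178980 to 4188023), an auxiliary subunit of neuronal sodium channels, had 0 and 0.556 normalized counts with SXL, against 62.4, 75.7 and 121 with SSX. That was 2 SXL reads in all, with a ratio of SSX to SXL of 295 (95% counting interval 81.1 to 2439). The gene sro (FBgn0262112, 3R, 29794597 to 29795805), which encodes an enzyme of ecdysone synthesis, had 0.601 and 1.95 normalized counts with SXL, against 119.7, 70.0 and 85.0 with SSX. The log2 fold change of sro was -6.09 (SE 0.47, edgeR adjusted p = 8.2e-36), with 9 SXL reads. The FGF receptor gene of tracheal cells, btl (FBgn0005592, 3L, 14075772 to 14083229), had 2.10 and 2.50 normalized counts with SXL, against 89.4, 69.5 and 114 with SSX. All 3 genes had at least 62.4 normalized counts in every SSX library and at most 2.50 in every SXL library, and btl had a log2 fold change of -5.27 (SE 0.43, edgeR adjusted p = 4.1e-32). Zip89B (FBgn0038412, 3R, 16305758 to 16308700), a zinc transporter, had 3.303 and 5.29 normalized counts with SXL, against 151, 124 and 106 with SSX. Its log2 fold change was -4.86 (SE 0.37, edgeR adjusted p = 1.8e-35). Tektin-A, which encodes a filament protein of cilia, had -4.88 (SE 0.40), and its neighbour CG13243, 15 bp away on the same strand, had -4.33 (SE 0.36). The remaining genes of the lowest 12, ssx aside, were CG42404 at -6.50 (SE 0.50), CR45140 at -4.29 (SE 0.37) and CG16779 at -4.16 (SE 0.36).

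Some RNAs had no SXL read at all. Ets65A, which encodes an ETS-domain transcription factor, had 0 reads in both SXL libraries and a mean of 53.9 ± 9.80 normalized counts with SSX (SD, n = 3). Against a floor of 3 reads over both SXL libraries it was at least 124-fold lower with SXL. By the same floor CR44566 was at least 83.9-fold lower, CG6048 at least 77.3-fold and CG31785 at least 75.9-fold. A further 7 genes had 1 to 3 SXL reads, among them slou, a homeobox gene of muscle founder cells, with a ratio of SSX to SXL of 137 (95% counting interval 37.4 to 1134). These floors and intervals cover counting error only, and the genes without SXL reads were chosen after their values had been seen.

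Hsromega, CR33963 and osk had more counts with SXL than CR44179, sro or btl, and values between -3.17 and -2.39. Hsromega (FBgn0001234, 3R, 21296127 to 21317836), the heat shock noncoding RNA of nuclear speckles, had 1284 and 1609 normalized counts with SXL, against 7889, 8062 and 10921 with SSX. The groups were far apart, with a log2 fold change of -2.63 (SE 0.34, edgeR adjusted p = 1.1e-13). CR33963 (FBgn0053963, X, 12659462 to 12660632) had 262 and 342 normalized counts with SXL, against 944, 1471 and 2341 with SSX, a log2 fold change of -2.39 (SE 0.29, edgeR adjusted p = 3.1e-15). The mRNA of osk (FBgn0003015, 3R, 8935126 to 8938395), which organises germ plasm in the oocyte, had 50.7 and 66.8 normalized counts with SXL, against 550.4, 575 and 468 with SSX. In osk the libraries of each group were close together, and the log2 fold change was -3.17 (SE 0.27, edgeR adjusted p = 8.9e-30). The other counted germline regulators, Phf7, brat and pum, had values between -1.56 and -1.20, and pum lay at 0.03 under TMM.

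Of 8 known SXL targets on the list, 5 had counts; Sxl itself was called higher with SXL and the other 4 higher with SSX, as were 92.1% of all listed genes. The mRNA of msl-2 (FBgn0005616, 2L, 3462218 to 3466112) had 823 and 962 normalized counts with SXL, against 2326, 3692 and 3242 with SSX. The groups did not overlap, and the log2 fold change was -1.79 (SE 0.29, edgeR adjusted p = 6.4e-09), which is -0.55 relative to the listed median and was called under all 4 scalings. N, the Notch receptor, had 1052 and 1069 normalized counts with SXL, against 2313, 3119 and 3168 with SSX (log2 fold change -1.44, SE 0.29, edgeR adjusted p = 1.7e-06). Phf7, a histone reader of male germ cells, had 41.7 and 46.2 normalized counts with SXL, against 129, 168 and 93.6 with SSX (log2 fold change -1.56, SE 0.28, edgeR adjusted p = 7.8e-08). Relative to the listed median N was at -0.20 and Phf7 at -0.32. The median of the 5 counted targets was -1.44, the value of N. The remaining target called higher with SSX therefore lay nearer 0 than N.

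Of 5 counted dosage compensation genes of 11 on the list, 4 were called higher with SSX (92.1% over all listed genes) and Unr was not, with a median of -1.30 against -1.24 over all listed genes. The scaffold gene msl-1 had 860.0 and 938 normalized counts with SXL, against 1761, 2652 and 3179 with SSX (log2 fold change -1.49, SE 0.29). The acetyltransferase gene mof had 259 and 272 with SXL, against 556, 764 and 647 with SSX (-1.30, SE 0.25). The chromodomain gene msl-3 had 199.99 and 196 with SXL, against 276, 443 and 403 with SSX (-0.92, SE 0.24), and its direction turned under TMM (0.32) and equal totals (0.12). Unr, the partner of SXL in repressing msl-2 translation, had 2079 and 2803 normalized counts with SXL, against 2477, 2835 and 4279.6 with SSX. Its groups overlapped, and the edgeR log2 fold change was -0.39 (SE 0.28, adjusted p = 0.18). That value also turned, to 0.85 under TMM and 0.65 under equal totals, where it passed. The neuronal RNA-binding protein gene elav, of the same protein family as SXL, had 653 and 706 normalized counts with SXL, against 1735, 1977 and 2868 with SSX (log2 fold change -1.69, SE 0.29).

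The next lists are to be read against the 92.1% of all listed genes that were called higher with SSX. Of 9 counted hnRNP, SR and KH splicing regulators, 8 were called higher with SSX, with a median of -1.31, and sqd was not (-0.62, SE 0.34, edgeR adjusted p = 0.070). The nuclear hnRNP gene Hrb27C had 8394 and 9550.3 normalized counts with SXL, against 21145, 24391 and 35976 with SSX (log2 fold change -1.60, SE 0.37). The KH gene ps, a relative of mammalian Nova, had -1.52 (SE 0.33), mbl, of the muscleblind family, -1.38 (SE 0.27) and mub -1.36 (SE 0.26). All 6 counted sex determination genes of 20 on the list were called higher with SSX, with a median of -0.93 that turned to 0.31 under TMM and 0.11 under equal totals. Among them fru, which specifies male courtship neurons, had 840.2 and 914 normalized counts with SXL, against 2352, 2977 and 3748 with SSX (log2 fold change -1.79, SE 0.29). The m6A complex subunit fl(2)d, needed for Sxl splicing, had the smaller value of -0.57 (SE 0.27), which was 0.66 under TMM and 0.45 under equal totals and lost its call without SXL library 2, SXL library 3 or SSX library 2 (-0.54, -0.60 and -0.54). All 7 counted Notch pathway genes (median -1.44) and all 6 counted cell cycle genes (median -1.20) were called higher with SSX; the median of the cell cycle genes was 0.03 under TMM.

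Within the Hedgehog list the members spread more widely. Of 6 with counts, 4 were called higher with SSX (92.1% over all listed genes), with a median of -1.27. The co-receptor gene boi had 47.1 and 58.1 normalized counts with SXL, against 205, 280.1 and 287 with SSX (log2 fold change -2.29, SE 0.26, edgeR adjusted p = 9.5e-17). The heparan sulfate polymerase gene ttv, needed for Hedgehog spreading, had 250.4 and 236 with SXL, against 1120.3, 1029.8 and 1109 with SSX (-2.16, SE 0.27, edgeR adjusted p = 5e-14). Both were among the genes lower with SXL under all 4 scalings. The signal transducer smo had 124 and 137 normalized counts with SXL, against 164, 176 and 135 with SSX, with overlap and a log2 fold change of -0.28 (SE 0.25, edgeR adjusted p = 0.27; 0.92 under TMM). The kinases sgg and CkIalpha lay at -1.28 and -1.25, near the listed median.

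The other lists held few counted genes, and 92.1% of all listed genes were called higher with SSX. Insulin and TOR genes (4 of 17) gave 3 calls towards SSX, led by InR at -1.61 (SE 0.29), and Polycomb and Trithorax genes (4 of 20) gave 4. Thor, the 4E-BP translation inhibitor, Pc, the founding Polycomb protein, and pho, a DNA-binding Polycomb partner, had values of -0.88, -0.97 and -0.57 that turned positive under TMM (0.36, 0.27 and 0.65). Without SXL library 2 the calls of Thor (-0.75) and pho (-0.47) were lost, and that of pho also without SXL library 3 (-0.67) or SSX library 3 (-0.41). Toll and IMD genes (3 of 13) were all called higher with SSX, with Dif at -1.67 (SE 0.29) and dl at -0.71 (SE 0.26), and dl turned to 0.51 under TMM and lost its call without SXL library 2 (-0.65) or SXL library 3 (-0.77). The chaperone gene Hsc70-3, the fly BiP, had 7165 and 7758 normalized counts with SXL, against 19888, 30713 and 42133 with SSX (log2 fold change -2.05, SE 0.38, edgeR adjusted p = 1.9e-07). DnaJ-1, a heat shock co-chaperone, had 2675 and 3059 with SXL, against 3205, 3661 and 3913 with SSX (-0.33, SE 0.29, edgeR adjusted p = 0.26), and was 0.89 under TMM. Single counted members were ogre, an innexin (-1.93, SE 0.27), His3.3B, a replacement histone (-1.38, SE 0.32), Moe, which links actin to the membrane (-1.32, SE 0.33), srp (-1.55, SE 0.31) and AGO1, the microRNA Argonaute (-1.23, SE 0.30, and 0.003 under TMM). Core spliceosome, basement membrane and mitochondrial rRNA and tRNA lists had no counted member. For LanA, a laminin of the basement membrane, the authors' deposited table had a log2 fold change of -0.21 with an adjusted p of 0.384.

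**Figure D5:**
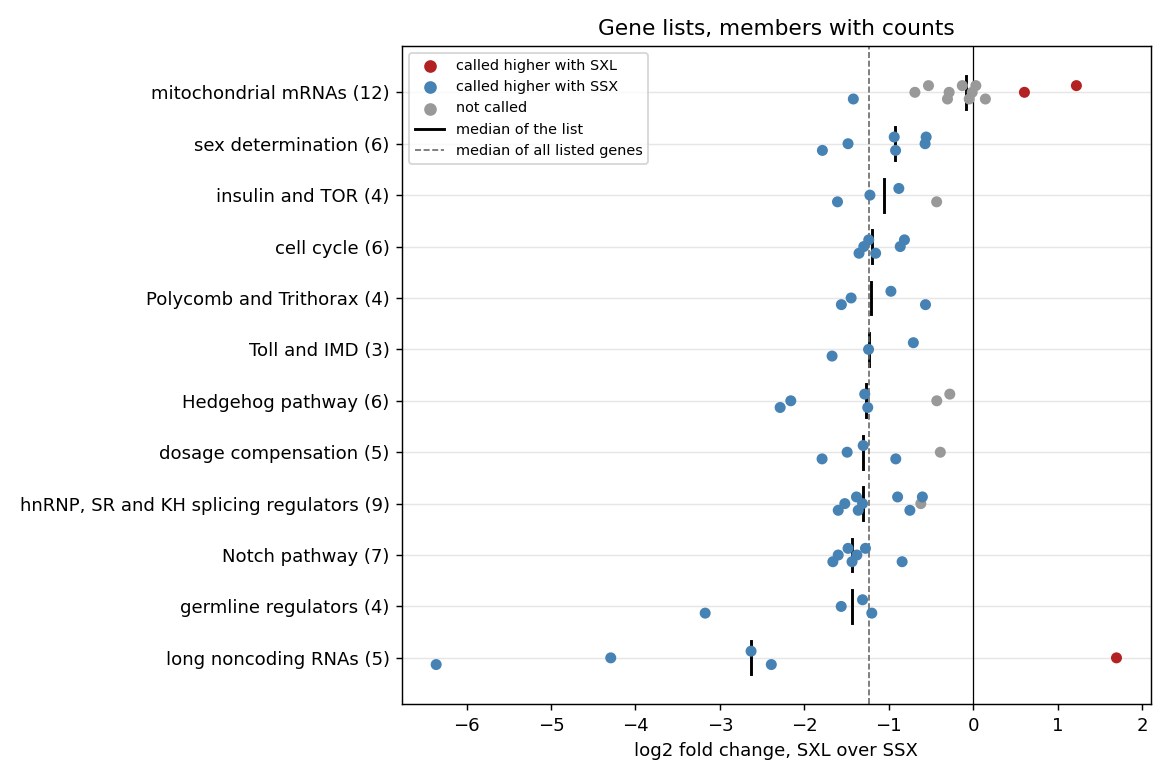
Each point is a counted gene of a list (number in brackets), placed on the x axis by its edgeR log2 fold change, SXL over SSX, and coloured by its call; black bars are list medians and the dashed line is the median of all 956 listed genes (-1.24). Mitochondrial mRNAs lie around 0 (median -0.09), the long noncoding RNA list, which includes CR43264 of 318 bp, reaches from -6.36 to 1.70, and most other list medians lie near the dashed line.

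Few of the 956 listed genes could be placed at equal recovery with some precision. For 3 listed genes the 95% interval of the log2 fold change in the authors' deposited table lay within -0.5 and 0.5. They were CG10426 (-0.48 to 0.45), CG10413 (-0.37 to 0.44) and CG6583 (-0.36 to 0.49). Tested genes outside the lists were not screened in this way. CG10426 had 309 and 337 normalized counts with SXL, against 303, 401 and 275 with SSX. CG6583 had 163 and 159 with SXL, against 148, 169 and 143 with SSX. In both the groups overlapped, and relative to the listed median they stood at 1.23 and 1.31.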

How the data were processed

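RNA immunoprecipitates of 2 SXL and 3 SSX samples from SL2 cells were compared; the input was not analysed here. The build BDGP6 and the tools DESeq2, DESeq, featureCounts, TopHat2 and Trimmomatic were used, per the submitters' processing notes; roles and versions are not given in the sources used here, nor whether counting used strand, so overlapping and antisense genes are uncertain. Per the file headers, the authors' deposited table of 17559 genes gives a mean normalized signal, a log2 fold change with its standard error, a test score and both a raw and an adjusted p-value, and the authors deposited read counts per library for 956 listed genes. Least squares of the mean normalized count on the counts gave each library's size factor (largest relative residual under 1e-06): 3.33 and 3.59 for SXL, against 2.15, 1.94 and 1.87 for SSX. A further 14 per-library columns were not used.

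For all genes the deposited test was used at an adjusted p of 0.05. On listed genes edgeR 4.0.16 (quasi-likelihood, R 4.3.3) was fitted to the counts of the 5 libraries with those size factors and Benjamini-Hochberg adjustment; DESeq2 1.42.0, TMM and equal totals were alternatives. On simulated counts for the 956 genes edgeR called 86.7% of those changed by a log2 of 1, 100% of those changed by 2 and 5 of 756 unchanged. The simulation changed 200 genes in both directions with the size factors known. It does not cover a shift of most genes, an uncertain scale or an outlying library, so these rates need not hold here. Tables used Python 3.11.15, pandas 2.3.3, numpy 2.4.6 and scipy 1.17.1, and plots matplotlib 3.10.9.

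Names came from the lists (956) and RefSeq synonyms (188); 16415 IDs stayed unnamed. Named genes were the 12 highest and 12 lowest edgeR values that passed with a mean normalized count of 50 or more. The 8 highest and 8 lowest of the deposited table were named too. So were listed genes whose deposited interval (1.96 SE) lay within 0.5 of 0. The rule also took every counted bait, ELAV, target and dosage compensation gene, and up to 4 genes of lowest adjusted p per other list. Members and lists were chosen with earlier results of these data known. Outside that rule, h, CG32579, sqd, smo, futsch, CG14655, CR45623, CR44953 and the genes with 3 or fewer SXL reads were chosen after their values were seen. Libraries are named by column number, which for SXL does not follow the sample titles. Within SXL the median log2 difference between libraries was 0.10, within SSX 0.10 to 0.41, and every pair differed beyond sampling noise (chi-square per degree of freedom 53.6 to 280), so none was a duplicate.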

Additional observations from a re-analysis of the deposited data

How the results depend on the processing

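Across all genes, calls of the authors' deposited table towards SXL numbered 1094 at an adjusted p of 0.05, 623 at 0.01, 669 with a log2 fold change past 1 and 627 among genes whose mean normalized count reached 50. With the median removed and p recomputed they numbered 1690. On listed genes, edgeR calls towards SXL numbered 12, and 169 under TMM and 78 under equal totals; calls towards SSX numbered 880, and 192 under TMM, 296 under equal totals and 142 on the SXL list alone, which tests fewer genes. Both scalings centre genes that were listed mostly for SSX. Leaving out 1 library gave 8 to 11 calls towards SXL and 672 to 906 towards SSX. Without SXL library 2 the named genes emc (-0.84), dap (-0.79) and Hr39 (-0.84) also lost their calls. A replicate block by column number, in which deviations of same-numbered libraries correlated at -0.005 for number 2 and 0.198 for number 3, gave 13 towards SXL and 912 towards SSX. Of 1265 refits of 88 named genes, 1108 kept direction and call and 62 had the opposite sign. The setting that added the GFP libraries is among these refits, and 87 of its refits kept direction and call. In 24 of the 62 neither value passed, all of them mitochondrial mRNAs, CG10413 or CG10426. The other 38 passed before or after, all under TMM or equal totals. Under TMM these were AGO1 (0.0027), Hr39 (0.30), Pc (0.27), S6k (0.015), Thor (0.36), dap (0.35), dl (0.51), emc (0.32), fl(2)d (0.66), msl-3 (0.32), pho (0.65), pum (0.026), CG10426 (1.19), DnaJ-1 (0.89), Rheb (0.78), Unr (0.85), mt:ATPase6 (1.17), mt:CoII (0.89), mt:ND1 (1.23), mt:ND4 (0.94) and mt:ND5 (1.11). Under equal totals they were Hr39 (0.10), Pc (0.070), Thor (0.16), dap (0.14), dl (0.30), emc (0.12), fl(2)d (0.45), msl-3 (0.12), pho (0.45), CG10426 (0.98), DnaJ-1 (0.69), Rheb (0.57), Unr (0.65), mt:ATPase6 (0.97), mt:ND1 (1.04), mt:ND4 (0.74) and mt:ND5 (0.92). TMM and equal totals moved the listed median towards SXL by 1.23 and 1.03, and such a shift can carry a value less far below 0 past it. Why the scales differ was not tested. The robust fit, the fit without bait genes and the recomputed centring were chosen after seeing the data. Genes with few SXL reads have their depth as the limit of any fold, and genes outside the lists have no counts here, so their dependence on single libraries was not tested.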
